A study of Arabidopsis thaliana with 8 samples.

Results

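The 14 transcripts described here stood lower in Alc::LHY than in wild-type Arabidopsis thaliana seedlings at 4 h and at 8-9 h after ethanol, while both lines lay close together at 0 h and 2 h. They were chosen from the authors' series matrix, which holds log10 ratios of Alc::LHY over wild type. All 4 columns at 4 h and 8-9 h had to be at most -0.35, which is 2.24-fold lower, and both columns at 0 h and both at 2 h had to lie within 0.15 of 0, which is 1.41-fold either way. The spot also had to be well above background in at least 1 dye on all 8 arrays. A spot could thus pass through the wild-type dye alone where Alc::LHY was low. The rule found 14 of the 34285 genes and unnamed transcripts on the array. Since the ratios at all 4 times chose the members, those ratios are a description here and carry no test. Adjusted p-values printed for members at single times set a ratio beside the spread between arrays, and nothing is read from them.

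LHY is a MYB-like transcription factor of the circadian clock that is most abundant around dawn and represses genes of the evening. An ethanol-inducible promoter gives such a factor a defined starting time, so that transcripts that follow within the first hours can be set apart from transcripts that follow later. A later change of a transcript can come through the factor itself or through steps in between, and array ratios do not separate these. Of the members with a gene symbol, PIP1A encodes an aquaporin, a water channel of the plasma membrane. scpl28 and scpl50 belong to the serine carboxypeptidase-like family, some of whose members act as acyltransferases in secondary metabolism. CYP710A2 is a cytochrome P450 of a subfamily that introduces a double bond into the side chain of plant sterols.

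Each array set RNA of whole Alc::LHY seedlings, which carry LHY under an ethanol-inducible promoter, beside RNA of wild-type seedlings, both in the Col-0 background. Seedlings grew for 2 weeks on MS agar in a 12 h photoperiod and were moved to continuous light. Ethanol was applied 17 h later as 5 ml to the roots, with soaked filter paper of 3 cm2 in the lid. The labels give 4 times (0, 2, 4 and 8-9 h) with replicates S and I at each, and for replicate S the last one was 9 h, for replicate I 8 h. Both lines shared the treatment of an array, and a line with the switch alone was not among the samples, so effects of LHY, of the switch and of the line cannot be told apart. The labels do not state that S and I came from separate cultures, so p-values measure the spread between these arrays, which may be technical. In RNA of whole seedlings, fewer cells of a type and less RNA per cell cannot be told apart.

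Ratios below set Alc::LHY over wild type on the log2 scale after background correction and loess normalization within each array, unless the authors' matrix is named. LHY itself stood 0.57 above wild type at 2 h (limma, adjusted p = 0.0301), and its later ratios did not pass, with 0.38 (adjusted p = 0.0534) at 4 h and 0.24 (adjusted p = 0.181) at 8-9 h. The LHY probe was dim, and the authors' matrix gives log2 ratios of 2.57 and 2.45 at 2 h, 1.403 and 0.95 at 4 h, and 0.77 and 0.39 at 8-9 h. The replicates' ratios correlated across all genes at -0.39 at 0 h, 0.65 at 2 h, 0.81 at 4 h and 0.87 at 8-9 h, and genes are not independent replicates. Of the shoot and root marker lists, all 5 shoot markers and 6 of 7 root markers were well above background in 1 dye or more on 8 arrays, and NRT2.1 was not measured. The summed level of 4 shoot markers with a value on every array lay between 16.98 and 17.95 in Alc::LHY and between 17.54 and 18.29 in wild type on the log2 scale. That of 6 root markers lay between 12.04 and 12.76 in Alc::LHY and between 11.99 and 12.84 in wild type. The summed shoot level at 4 h was 17.62 and 16.98 in Alc::LHY and 18.01 and 18.29 in wild type (replicates S and I). At 4 h all 5 shoot markers were called lower in Alc::LHY, from -0.51 for RBCS1A to -1.98 for LHCB3. RBCS1A was split by replicate, at 0.00 and -1.02 at 4 h after 0.30 and -0.45 at 0 h. At 8-9 h RBCS1A (-0.15, adjusted p = 0.338) and LHCB3 (-0.83, adjusted p = 0.148) did not pass. The root markers went both ways, since at 4 h SHR (-1.22) and SCR (-1.03) were called lower, COBL9 (SHV2 in the gene table) was called higher (1.70), and the other 3 did not pass. The part of the marker levels in the members' ratios was not tested.

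Most transcripts that were low at 4 h and 8-9 h already lay below the window at 2 h. On the authors' scale, 489 genes (559 features) were at or below the bound on all 4 late arrays and close to 0 at 0 h. Counted by feature, so that a gene can fall under several headings, 422 genes lay below -0.15 on both 2 h arrays, 56 were mixed or higher at 2 h, and 14 stayed within the window. At 2 h the members had a median ratio of -0.23, against -1.25 for the other 545 features, and their late medians were -1.50 and -1.70 on the log2 scale. Within the 2 h window that chose them, 9 members lay below 0 on both 2 h arrays, 4 lay on both sides of 0, and 1 lay above 0 on both. The member above 0 was AT3G59340, a protein-coding gene without a symbol in the gene table, at 0.44 and 0.47 in the authors' ratios at 2 h. The limma fit, in which a gene was called at a Benjamini-Hochberg adjusted p under 0.05, called 1 of 14 members lower at 2 h, beside 7.81% of all genes tested. That member was H77179 (-0.50 ± 0.12, SE, n = 2 arrays, adjusted p = 0.037), known only by its accession. The window of the rule had used the same 2 h arrays, so nothing is read from this call. The call was lost when either 2 h array was left out (adjusted p = 0.243 without replicate S and 0.351 without replicate I).

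**Figure D1:**
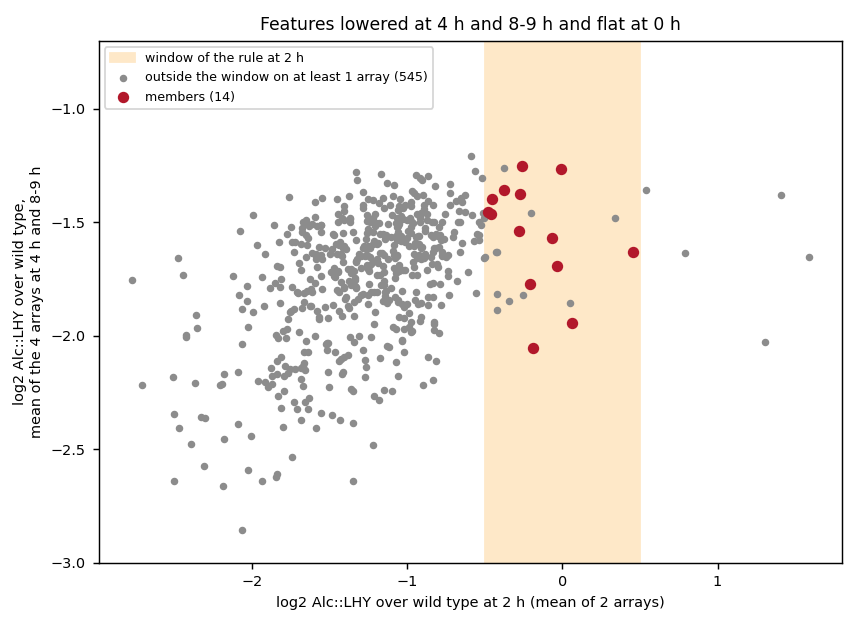
Each point is 1 of the 559 features that met the rule at 0 h, 4 h and 8-9 h. The x axis gives the authors' log2 ratio of Alc::LHY over wild type at 2 h, the y axis the mean of the 4 later arrays, and the shaded band the window of the rule at 2 h. The 14 members (red) lie between -0.48 and 0.46 at 2 h, while the other features (grey) reach from -2.77 to 1.59 and most lie left of the band. A grey point inside the band has at least 1 of its 2 arrays outside it.

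The bound and the window decided who was a member among many transcripts with near values. PIP1A (highest late log10 ratio -0.352), AT5G22310 (-0.355) and AT3G16370 (-0.357) were just inside the late bound. AT5G02760 (-0.348), TC363849 (-0.347) and AT2G34080 (-0.345) were just outside it. A late bound of -0.30 gave 29 genes and one of -0.40 gave 4. An early window of 0.10 gave 3 genes and one of 0.20 gave 33. The strictness of the 2 h window rested on both arrays, since the rule found 32 genes without the replicate S array at 2 h and 47 without the replicate I array.

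scpl50, a serine carboxypeptidase-like gene, had a mean log2 ratio of -1.54 over the 4 late columns of the authors' matrix. Its ratios in replicates S and I were 0.07 and 0.16 at 0 h, -0.23 and -0.25 at 2 h, -1.45 and -1.15 at 4 h, and -1.67 and -1.54 at 8-9 h. The pairs at 4 h and 8-9 h lay apart from all 4 earlier values. In Alc::LHY the log2 level of scpl50 was 10.19 and 9.98 at 0 h, 9.88 and 9.80 at 2 h, 8.70 and 8.93 at 4 h, and 8.69 and 8.66 at 8-9 h. In wild type it was 10.11 and 9.82 at 0 h, 10.12 and 10.05 at 2 h, 10.15 and 10.08 at 4 h, and 10.36 and 10.20 at 8-9 h. The Alc::LHY level was thus the one that moved, by -1.49 and -1.04 from 0 h to 4 h, while wild type moved by 0.03 and 0.26.

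scpl28, the other serine carboxypeptidase-like member, was a dim member, and its Alc::LHY signal was well above background on 1 of 2 arrays at 4 h and 1 of 2 at 8-9 h. Its ratios were -0.26 and 0.25 at 0 h, -0.18 and 0.05 at 2 h, -0.67 and -1.19 at 4 h, and -0.52 and -1.02 at 8-9 h. At 4 h and 8-9 h replicate I lay lower than replicate S, and all 4 late values lay below the earlier ones. Over all times Alc::LHY was well above background on 5 arrays and wild type on 8. In the fit it stood at -0.93 ± 0.20 (adjusted p = 0.0119) at 4 h, and -0.77 ± 0.20 (adjusted p = 0.0229) at 8-9 h. The rule had used the late ratios of these arrays, so the p-values are a description only. With the replicate I array of 4 h left out, scpl28 no longer passed at that time (-0.63, adjusted p = 0.172), and the call at 8-9 h was lost without either of its arrays (-1.05, adjusted p = 0.0588, and -0.48, adjusted p = 0.336).

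PIP1A, the aquaporin gene, was the brightest member. Its ratios were 0.03 and 0.03 at 0 h, -0.39 and -0.30 at 2 h, -1.36 and -1.59 at 4 h, and -1.31 and -1.01 at 8-9 h. Both late times lay below both earlier ones, and the 2 h pair lay below the 0 h pair. The log2 level of PIP1A in Alc::LHY was 11.64 and 12.37 at 0 h, 11.23 and 11.53 at 2 h, 10.85 and 11.15 at 4 h, and 11.31 and 11.46 at 8-9 h. In wild type it was 11.61 and 12.34 at 0 h, 11.62 and 11.83 at 2 h, 12.21 and 12.74 at 4 h, and 12.62 and 12.47 at 8-9 h. At 4 h Alc::LHY had moved by -0.79 and -1.23 from 0 h and wild type by 0.61 and 0.40, so the lines moved apart in both directions.

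PIP1A had 4 probes on the array, and the bright and the dim ones gave unlike ratios. A brighter probe, which missed the late bound on 1 array, stood at -1.51 at 4 h and -1.10 at 8-9 h. A dim probe stood at -0.44 and -0.42, and another was well above background on no array. In the authors' matrix the first dim probe had log10 ratios of -0.391 and -0.303 at 4 h and -0.395 and -0.193 at 8-9 h, so its distance from the bright ones depended on the processing. Since the probe sequences were not used here, signal shared with the other plasma membrane aquaporin genes could not be separated.

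CYP710A2, the cytochrome P450 gene, had ratios of 0.08 and 0.28 at 0 h, -0.26 and 0.18 at 2 h, -1.17 and -1.23 at 4 h, and -1.23 and -1.36 at 8-9 h. The 4 late values lay close together and below the earlier ones, while the 2 h pair lay on both sides of 0. In Alc::LHY its log2 level was 11.08 and 11.45 at 0 h, 10.76 and 11.06 at 2 h, 10.20 and 10.47 at 4 h, and 10.17 and 10.30 at 8-9 h. In wild type it was 11.001 and 11.17 at 0 h, 11.02 and 10.88 at 2 h, 11.36 and 11.70 at 4 h, and 11.40 and 11.65 at 8-9 h. Alc::LHY had moved by -0.88 and -0.98 at 4 h and by -0.91 and -1.16 at 8-9 h, and wild type by 0.36 and 0.52 and by 0.40 and 0.48.

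The 7 members with a locus but no symbol in the gene table, and the 3 with an accession only, are given without a role. AT1G65985 had the lowest mean at 8-9 h in the fit. Its ratios were -0.43 and 0.12 at 0 h, -0.16 and 0.06 at 2 h, -1.75 and -1.35 at 4 h, and -1.60 and -1.78 at 8-9 h. The level of AT1G65985 in Alc::LHY was 10.19 and 10.30 at 0 h, 10.60 and 10.54 at 2 h, 9.10 and 9.33 at 4 h, and 8.91 and 8.72 at 8-9 h, and in wild type 10.62 and 10.19 at 0 h, 10.77 and 10.49 at 2 h, 10.85 and 10.68 at 4 h, and 10.50 and 10.50 at 8-9 h. The Alc::LHY level at 2 h was above that at 0 h in both replicates and lay below it at 4 h and 8-9 h.

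AT2G44940 had ratios of -0.15 and 0.32 at 0 h, -0.40 and -0.07 at 2 h, -1.24 and -1.27 at 4 h, and -1.21 and -1.25 at 8-9 h. The 4 late values lay close together. Its Alc::LHY level had moved by -0.69 and -0.75 at 2 h already, while wild type had moved by -0.44 and -0.37. Both lines thus went down by 2 h, Alc::LHY further in both replicates, and the gap was wider at 4 h. AT3G59340, the member above 0 at 2 h, had ratios of -0.05 and -0.11 at 0 h, 0.29 and 0.18 at 2 h, -1.09 and -0.67 at 4 h, and -0.96 and -0.89 at 8-9 h. Between 0 h and 2 h it moved by 0.00 and -0.44 in Alc::LHY and by -0.34 and -0.73 in wild type.

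NM_111422 had ratios of -0.27 and 0.27 at 0 h, -0.45 and -0.47 at 2 h, -1.68 and -1.23 at 4 h, and -1.24 and -1.23 at 8-9 h. Its late values were lower than all earlier ones, and its 0 h pair lay on both sides of 0. AT3G16370 had ratios of -0.17 and -0.29 at 0 h, -0.42 and -0.46 at 2 h, -1.73 and -1.23 at 4 h, and -1.51 and -1.40 at 8-9 h. H77179 had ratios of -0.17 and -0.40 at 0 h, -0.44 and -0.56 at 2 h, -1.63 and -1.32 at 4 h, and -1.38 and -1.49 at 8-9 h. These last 2 transcripts followed each other on all 8 arrays, with a root mean square difference of 0.09 between their ratios, and each was the nearest of all genes tested to the other. AT3G16370 had 3 further probes, 2 of them brighter, which stood at -1.41 and -1.43 at 4 h, and a dim one at -0.32. The brighter ones failed the rule only at 2 h, where 1 of their arrays stood at -0.176 and -0.16 on the log10 scale.

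AT2G27420 and NP10426526 formed a second such pair, with a root mean square difference of 0.08. AT2G27420 had ratios of -0.22 and -0.14 at 0 h, -0.03 and -0.16 at 2 h, -1.21 and -1.99 at 4 h, and -1.60 and -1.33 at 8-9 h. NP10426526 had ratios of -0.18 and -0.13 at 0 h, 0.08 and -0.26 at 2 h, -1.29 and -2.12 at 4 h, and -1.57 and -1.34 at 8-9 h. In both, replicate I was lower at 4 h and replicate S was lower at 8-9 h. Whether the probes of a pair read the same transcript is not known, since their sequences were not used here, so the 14 members may stand for fewer transcripts.

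AT3G49330 and AT5G22310 were the dimmest members. The rule had used their late ratios on these arrays, so the p-values given for them are a description only. AT3G49330 had ratios of -0.11 and -0.10 at 0 h, -0.07 and 0.02 at 2 h, -0.35 and -0.44 at 4 h, and -0.28 and -0.15 at 8-9 h. Alc::LHY was not well above background on either array at 4 h or at 8-9 h, so its level there is uncertain. With that signal taken at its measured value, Alc::LHY was 1.32-fold lower at 4 h. This is the fitted ratio itself (-0.40 ± 0.09, adjusted p = 0.0178) with its error, and not a lower bound. The ratio at 8-9 h did not pass (-0.21 ± 0.09, adjusted p = 0.119). The call at 4 h was lost when either array of that time was left out (-0.48, adjusted p = 0.0758, and -0.31, adjusted p = 0.194). AT5G22310 had ratios of -0.03 and 0.28 at 0 h, -0.06 and -0.01 at 2 h, -0.39 and -0.18 at 4 h, and -0.25 and -0.14 at 8-9 h, which passed at neither late time (adjusted p = 0.0542 and 0.151). For AT5G22310 Alc::LHY was well above background on 5 arrays, with 1 of 2 at 4 h and 1 of 2 at 8-9 h, and wild type on 8. The other, brighter probe of AT5G22310 stood at -0.58 at 4 h and -0.67 at 8-9 h, and was called at both (adjusted p = 0.0143 and 0.00797).

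**Figure D2:**
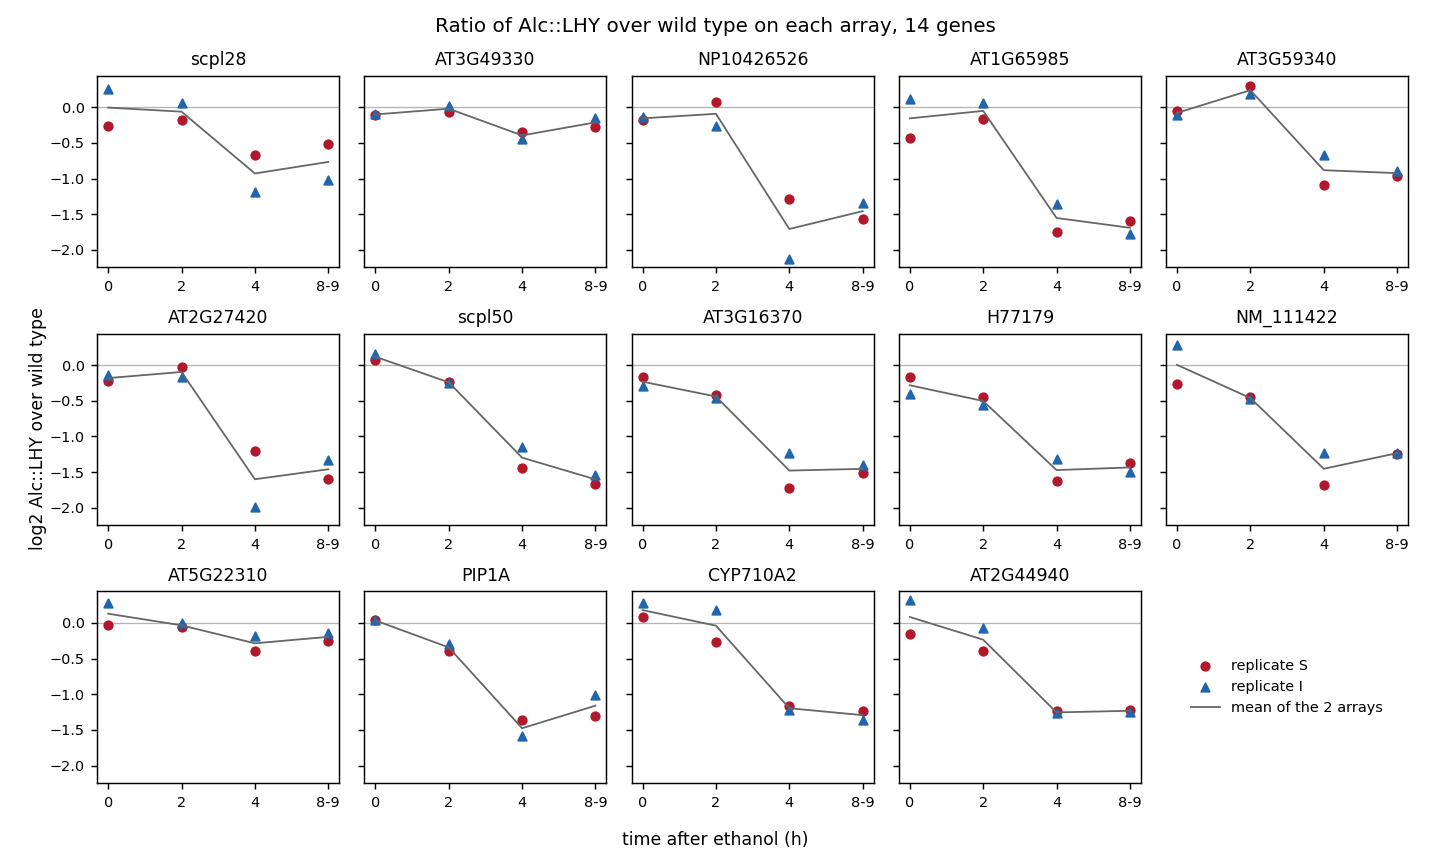
Log2 ratio of Alc::LHY over wild type (y axis) on each array against time after ethanol in h (x axis), with 1 panel per gene. Circles are replicate S, triangles replicate I, and the line joins their means. In 10 panels all 4 late values lie below -1, and in those of AT3G49330 and AT5G22310 they lie above -0.5.

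How far below 0 a member stood depended on the processing for the dim probes. On the 10 brighter members the authors' ratios and the ratios here were close, such as -1.36 and -1.32 for the mean of the 4 late arrays of PIP1A. On the 4 dim ones they were far apart. scpl28 had a late mean of -2.05 in the authors' matrix and -0.85 here, AT3G49330 -1.94 and -0.30, AT3G59340 -1.63 and -0.90, and AT5G22310 -1.38 and -0.24. The authors' ratios come from background-subtracted signals, and the ratios here from a background model with an added offset of 50. Both processings put Alc::LHY lower on these dim probes, but they read the same arrays, and the rule chose that direction in the authors' ratios. The shared direction is therefore no support, and the size of the difference is not shared. With the rule applied to the loess ratios, 10 genes were found, of which 7 were among the 14.

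**Figure D3:**
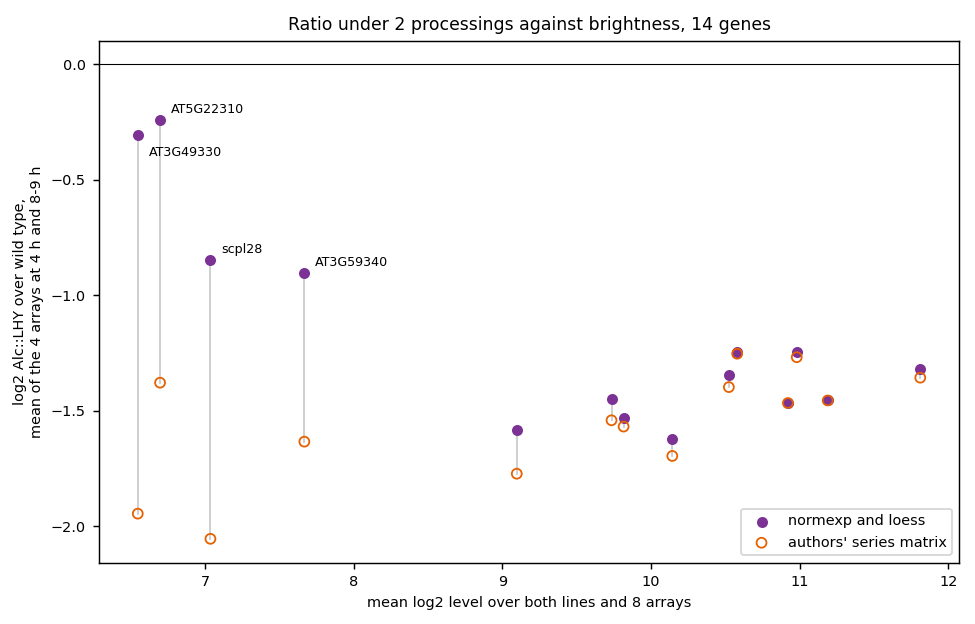
Mean log2 ratio of the 4 late arrays (y axis) against the mean log2 level over both lines and all arrays (x axis) for the 14 members, with the ratios of this fit as filled and those of the authors' matrix as open circles. The 4 members with a level under 8 differ most between the processings.

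Fitted across all 21471 genes, 13 of 14 members were called lower at 4 h, beside 19.4% of all genes, and 12 of 14 at 8-9 h, beside 20% of all genes. The rule used the same ratios, so nothing is read from these counts. With median centring in place of loess, limma called 11 members at 4 h and 0 at 8-9 h, where 12 had an unadjusted p under 0.05. Over all genes that scaling gave 1099 lower and 342 higher at 4 h, where the loess fit gave 4167 lower and 3719 higher. At 8-9 h it gave 68 lower and 217 higher, where the loess fit gave 4284 lower and 3600 higher. The median over all genes was then -0.12 at 2 h, -0.10 at 4 h and 0.11 at 8-9 h, and relative to these medians all 14 members stayed below 0 at both late times.

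The rule set the same bound at 4 h and at 8-9 h and so did not fix which of these times was lower. PIP1A had the largest move back towards 0, at 0.32 ± 0.16 for 8-9 h minus 4 h (adjusted p = 0.649). scpl50 had the largest move further down, at -0.30 ± 0.14 (adjusted p = 0.625). NP10426526 (0.25 ± 0.26) and NM_111422 (0.22 ± 0.19) lay nearest to PIP1A, and AT1G65985 (-0.14 ± 0.19) and CYP710A2 (-0.10 ± 0.17) nearest to scpl50. The median over the members was 0.06, against 0.00 over all genes, with 10 members above 0 and 4 below. limma called 0 of 14 members, beside 0% of all genes tested, and 0 members and 1745 genes had an unadjusted p under 0.05.

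A low ratio can come from a fall in Alc::LHY, a rise in wild type, or both, and the rule did not choose between these. Later samples differed from 0 h in ethanol and in time under continuous light, with no untreated seedlings at these times. In a line's own change these 2 cannot be told apart. A line was counted as moved when its log2 level differed from its own 0 h level by over 0.5 in the same direction in both replicates. Alone means that the other line did not meet this bound, as for PIP1A, whose wild type moved by 0.61 and 0.40 at 4 h. At 4 h Alc::LHY alone had gone down for 10 of 14 members, beside 11.2% of all genes for which Alc::LHY went down. Wild type alone had gone up for 2 members, beside 1.89% of all genes for which wild type went up, and neither count was met for the other 2. At 8-9 h Alc::LHY alone had gone down for 7 members, beside 13.2%, and wild type alone had gone up for 2, beside 3.14%, which left 5 with neither. Since the rule fixed the difference of both lines' changes, these shares are set side by side with no test. A bound of 1 in place of 0.5 left Alc::LHY down for 1 member at 4 h and 4 at 8-9 h, and wild type up for 0 members at 4 h and 2 at 8-9 h.

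AT2G27420 and NP10426526 were the 2 members at which wild type went up, and their Alc::LHY level stayed near or above its 0 h level. For AT2G27420 the log2 level in Alc::LHY was 9.40 and 9.04 at 0 h, 9.60 and 9.77 at 2 h, 9.19 and 9.21 at 4 h, and 9.33 and 9.65 at 8-9 h. In wild type it was 9.62 and 9.18 at 0 h, 9.63 and 9.93 at 2 h, 10.39 and 11.20 at 4 h, and 10.92 and 10.98 at 8-9 h. From 0 h to 4 h Alc::LHY had thus moved by -0.21 and 0.17 and wild type by 0.77 and 2.02. NP10426526 moved by -0.21 and 0.44 in Alc::LHY and by 0.90 and 2.43 in wild type at 4 h. For these 2 the word lowered holds against wild type at the same time, and not against the line's own start.

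For the members with a down-move of Alc::LHY at 4 h that was not counted at 8-9 h, 1 replicate decided. PIP1A had moved by -0.33 and -0.92 in Alc::LHY at 8-9 h, H77179 by -0.41 and -1.52 and scpl28 by -0.32 and -1.09, each with replicate S short of the bound. Over all 14, the median change of Alc::LHY was -0.22 at 2 h, -0.95 at 4 h and -0.95 at 8-9 h. That of wild type was 0.00 at 2 h, 0.31 at 4 h and 0.20 at 8-9 h. Wild type lay above its 0 h level for all 14 members at 4 h and for 11 at 8-9 h, while the medians over all genes lay between -0.03 and 0.02 in both lines. The share of all genes with wild type above 0 h was not counted. The rule chose low late ratios on these same arrays, so nothing is read from these member counts.

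**Figure D4:**
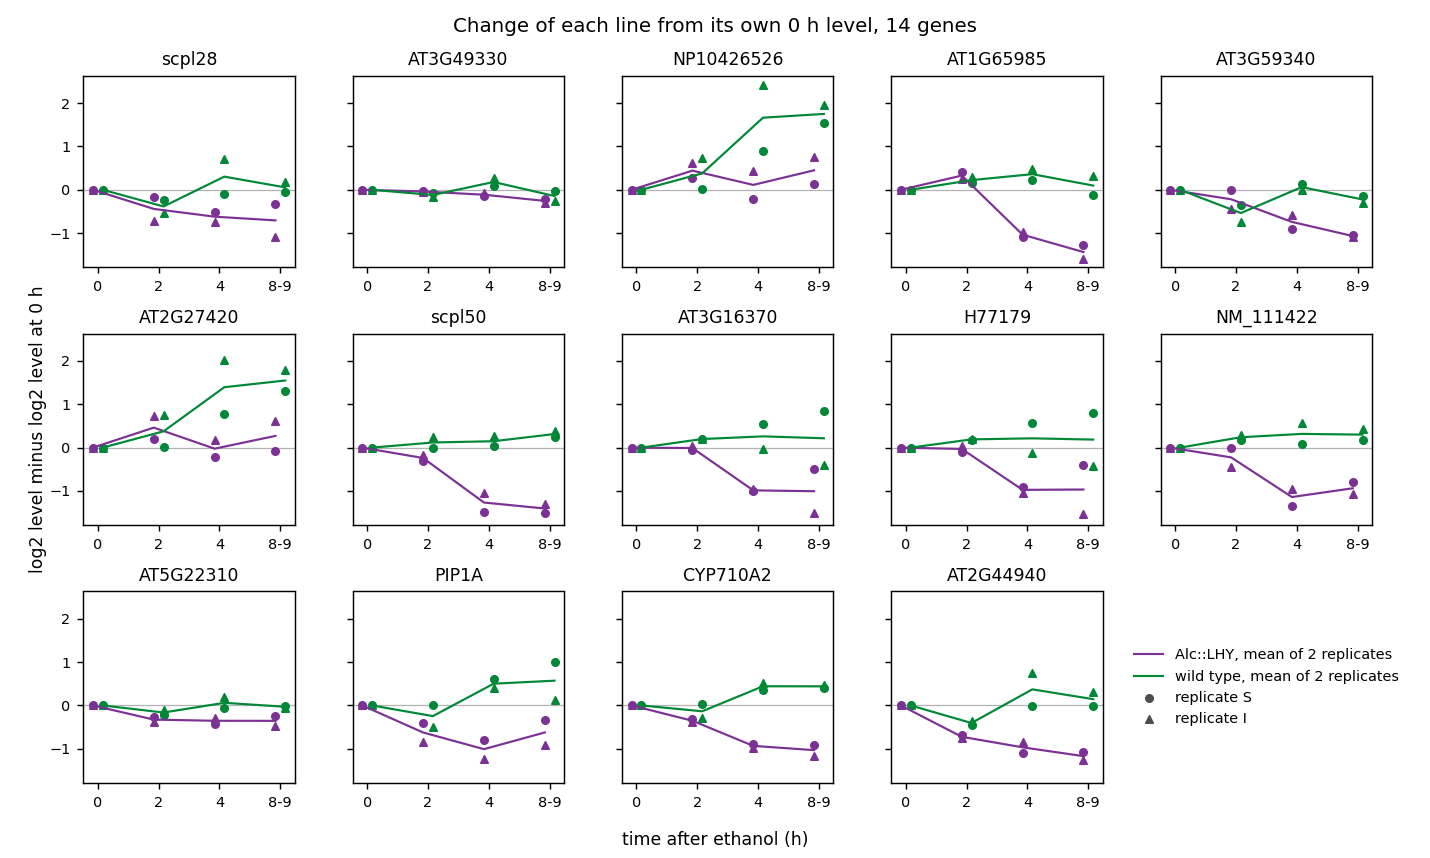
Log2 level minus the log2 level of the same line and replicate at 0 h (y axis) against time after ethanol in h (x axis), 1 panel per gene, with Alc::LHY in purple and wild type in green. Circles are replicate S, triangles replicate I, and lines join the means. In the panels of NP10426526 and AT2G27420 wild type goes up at 4 h and 8-9 h by over 0.5 in both replicates. Alc::LHY does not go down by 0.5 there, and in replicate I it rises by up to 0.75 and 0.73. In the panels of scpl50 and AT1G65985 Alc::LHY goes down at these times and wild type stays within 0.5.

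PIP1A was the only member on any of 14 lists of growth, photosynthesis, metabolism and clock genes, and 13 lists held no member. The lists held 7 to 28 genes each, beside 21471 genes tested. Few of any 14 genes would be on them, so nothing is read from the lists without a member. The aquaporin list held 11 chosen genes and was not a search of the gene table for the family. Of the other 10 genes on that list, all measured, 7 were lower and 1 was higher in Alc::LHY at 4 h, beside 19.4% and 17.3% of all genes tested. At 8-9 h 7 were lower and 1 higher, beside 20% and 16.8%. At 2 h 6 were lower already and 3 were higher, beside 7.81% and 6.36%. The median ratio of these 10 was -0.60 at 2 h, -1.16 at 4 h and -1.05 at 8-9 h, against 0.00, -0.01 and -0.01 over all genes. The count of lower genes at 2 h rested on both arrays. Without either 2 h array it was 0 in limma, where 4 genes (replicate S left out) and 6 genes (replicate I left out) had an unadjusted p under 0.05. With median centring it was 0 at 2 h (6 at an unadjusted p under 0.05) and 1 at 8-9 h.

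PIP1B, a plasma membrane aquaporin of the same subgroup as PIP1A, stood at -0.71 ± 0.09 at 2 h (adjusted p = 0.00548), -1.61 ± 0.09 at 4 h and -1.07 ± 0.09 at 8-9 h. PIP1A had a ratio of -0.34 ± 0.11 at 2 h (adjusted p = 0.0998). PIP1C differed in direction at 2 h, at 0.48 ± 0.10 (adjusted p = 0.0267), and was lower later (-0.34 at 4 h and -0.60 at 8-9 h). With median centring its 2 h value was -0.04 (adjusted p = 0.984). In the authors' ratios PIP1C passed at no time, with 0.52 (adjusted p = 0.0783) at 2 h, -0.30 (adjusted p = 0.178) at 4 h and -0.49 (adjusted p = 0.0586) at 8-9 h. The 4 h call of PIP1C was also lost with each of the 8 arrays left out in turn. PIP1;4 passed at no time, with -0.54 at 4 h (adjusted p = 0.0653). Whether PIP1A differed from its relatives at 2 h was not tested.

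Among the listed aquaporins of the other plasma membrane subgroup, PIP2A (-1.01 at 2 h, -2.08 at 4 h and -1.68 at 8-9 h), PIP3 (-0.95, -1.52 and -1.36) and PIP2;8 (-0.56, -0.80 and -1.03) were called lower at all 3 times. PIP2B was higher at 2 h (1.83 ± 0.19, adjusted p = 0.00243) and stood at 0.10 at 4 h (adjusted p = 0.719). The listed tonoplast aquaporins, which sit in the vacuole membrane, split. TIP2 (-1.75 at 4 h) and DELTA-TIP (-1.77) were lower at all 3 times, and GAMMA-TIP was higher at all 3 (1.54, 1.29 and 1.08).

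**Figure D5:**
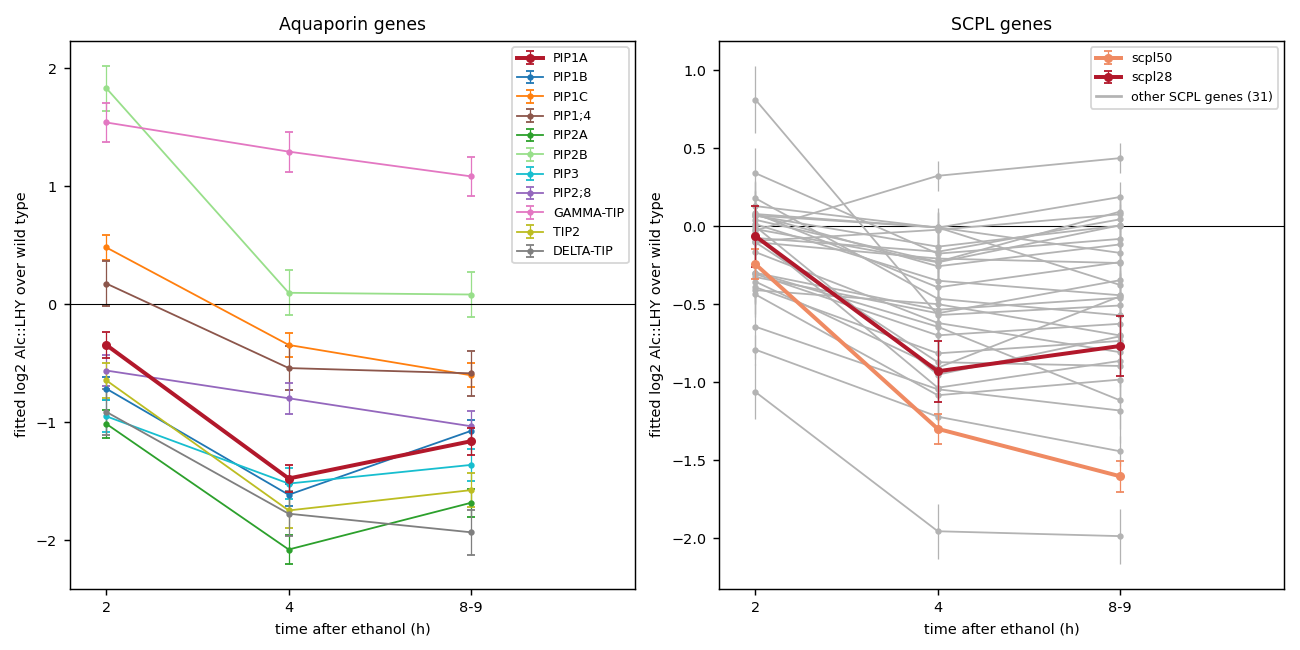
Fitted log2 ratio of Alc::LHY over wild type with its standard error (y axis) at 2, 4 and 8-9 h after ethanol (x axis) for the 11 listed aquaporin genes (left) and 33 SCPL genes (right). PIP1A, scpl50 and scpl28 are drawn thick. PIP1A lies among the lower aquaporins at 4 h, and the window of the rule had kept its 2 h ratio near 0. scpl50 is at -0.24, -1.30 and -1.60.

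The serine carboxypeptidase-like genes were looked up by symbol because 2 members belonged to them. The gene table holds 49, of which 33 were measured and 31 were not members. Of these 31, 2 were lower at 2 h, 16 at 4 h and 14 at 8-9 h, beside 7.81%, 19.4% and 20% of all genes, and 1 was higher at 4 h and at 8-9 h. Without 1 array of the time in question the count was 8 or 10 at 4 h and 8 or 4 at 8-9 h, and with median centring limma called 4 at 4 h and 0 at 8-9 h, where 6 had an unadjusted p under 0.05. The median ratio of the 31 was -0.07 at 2 h, -0.50 at 4 h and -0.45 at 8-9 h. SCPL34 (-1.06 at 2 h, -1.95 at 4 h and -1.99 at 8-9 h) and scpl25 (-0.79, -1.22 and -1.44) were the 2 called lower at 2 h, and both were called later too. For both, the 2 h call was lost without either 2 h array and with median centring. SCPL49 was the one called higher (0.32 at 4 h, adjusted p = 0.0372, and 0.44 at 8-9 h). Without the dye term, which is also the replicate block, SCPL49 passed at neither time (adjusted p = 0.139 and 0.0592). Its 4 h call was lost with each of the 8 arrays left out in turn, and its 8-9 h call without either array of that time.

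SCPL11 and scpl48 came close to the members' time course without meeting the bound, and were picked out after their values were seen. SCPL11 stood at -0.06 ± 0.09 at 2 h (adjusted p = 0.713), -1.03 ± 0.09 at 4 h and -0.86 ± 0.09 at 8-9 h. scpl48 stood at 0.00 ± 0.11, -0.95 ± 0.11 and -0.70 ± 0.11. The late ratios of both were called lower, but the 2 h value of scpl48 averaged -0.33 and 0.32. At 8-9 h scpl48 no longer passed with the dye term left out (adjusted p = 0.061) or with replicate I of that time left out (adjusted p = 0.0895). With median centring scpl48 (adjusted p = 0.439) and SCPL11 (adjusted p = 0.21) were not called at 8-9 h. In the gene table scpl26 lies directly beside scpl28, and it was lower as well (-0.81 at 4 h, adjusted p = 0.00228, and -0.73 at 8-9 h). Of the subfamily of CYP710A2 only CYP710A4 was measured besides it, at -0.18 at 4 h (adjusted p = 0.213).

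The genes next to the members in the gene table went both ways. Of 14 measured neighbours of the 11 members with a locus, 4 were lower and 4 higher at 4 h, beside 19.4% and 17.3% of all genes. At 8-9 h 4 were lower and 5 higher, beside 20% and 16.8%. CYSC1, a cysteine synthase family gene next to PIP1A, was lower (-1.18 at 4 h), and AT3G61420 on the other side of PIP1A stood at -0.52. scpl50 lay between AT1G14990, which was higher (0.66 at 4 h), and AT1G15010, which was also higher at 4 h (1.17, adjusted p = 0.049).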

How the data were processed

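RNA of Alc::LHY and wild-type seedlings was compared directly on 8 Agilent 2-colour arrays, with Alc::LHY in Cy5 in replicate S and in Cy3 in replicate I. Each replicate had its own slide and dye orientation, so these 3 cannot be told apart. Per the file headers, the deposited median signals and backgrounds are intensity values in arbitrary units, and the deposited log ratios are log10 values as corrected for background and dye by the scanner software. The submitters' processing notes name Agilent Feature Extraction 10.7.3.1. The deposited series matrix, with these log10 ratios as Alc::LHY over wild type (largest difference 0.0049), was used to find the members. Members and gene lists were chosen with earlier results of these data known, and the serine carboxypeptidase-like and CYP710A families after the members were known.

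From the intensities, background was corrected with normexp (offset 50) and ratios were normalized by loess within each array, with control spots at weight 0 and 161 spots with an outlier flag left out. Spot medians served as signals, and 0 spots were saturated. Spots well above background made up 50.8% to 58.9% of an array for Cy3, against 57.6% to 63.2% for Cy5, and the number of arrays limits the precision. Channel levels were set to a common scale with Aquantile. Of 43603 probes, 28465 were kept, being well above background in a dye on at least 2 arrays with values on at least 6. A gene stood by its brightest kept probe, and a member by the probe that passed the rule. Names came from the TAIR10.1 gene table, which matched 26259 of 35161 accessions. Coordinates are left out because the files' annotation is of an older build.

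limma 3.58.1 in R 4.3.3 fitted 4 times and a dye term to log2 ratios of 21471 genes (3 residual and 3.59 prior degrees of freedom), with Benjamini-Hochberg adjustment within each comparison over all genes and a threshold of 0.05. Since the dye term is also the replicate block, deviations of replicates from their group mean were compared between times and correlated at -0.02 to 0.60. The named genes are all members and the 3 genes just inside and outside the bound, with families as stated. The steps were tested on simulated data. The alternatives are given in the closing section. Promoter sequences were not analysed here.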

Additional observations from a re-analysis of the deposited data

How the results depend on the processing

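Across 17 alternative settings and 14 members at 4 h and 8-9 h, 476 fitted ratios were recomputed, and all were below 0. The rule had chosen the members for low late ratios on these same arrays, so the shared sign is no support. In 8 settings other than median centring and leaving out an array, 211 kept their side of the threshold and 13 newly passed it, all of them values of AT5G22310 and AT3G49330. The scanner software's log ratio and the authors' matrix, which chose the members, count as separate settings there. They hold nearly the same values (largest difference 0.0049), so their new passes are counted double and are no support. With 1 array left out, 219 kept their side and 5 lost the call, all of them values of scpl28 and AT3G49330. Members called lower then numbered 11 to 13 at 4 h and 11 or 12 at 8-9 h, and 0 differed between 8-9 h and 4 h in limma, with up to 3 at an unadjusted p under 0.05. Without the replicate block (no dye term) the member counts were 13, 12 and 0, as with it. Other aquaporins called lower at 2 h then numbered 4 in place of 6, with PIP1B (adjusted p = 0.065) and DELTA-TIP (adjusted p = 0.0753) no longer called, and SCPL49 at both late times and scpl48 at 8-9 h lost their calls. Median centring in place of loess gave 11 members at 4 h and 0 at 8-9 h in limma (12 at an unadjusted p under 0.05). It also gave 0 other aquaporins lower and 0 higher at 2 h (6 and 2 at an unadjusted p under 0.05), 0 higher at 4 h (0), and 1 lower and 0 higher at 8-9 h (6 and 1), and PIP1C at 2 h turned to -0.044. Other serine carboxypeptidase-like genes called lower in limma then numbered 0 at 2 h, 4 at 4 h and 0 at 8-9 h, with 6, 17 and 6 at an unadjusted p under 0.05. The cause of these losses was not tested. Over all genes lower calls at 2 h were 1677, and 0 with median centring (limma), 198 without replicate S and 173 without replicate I of that time. At 4 h they were 4167, and 1099 with median centring, 1948 without replicate S and 2260 without replicate I. At 8-9 h they were 4284, and 68 with median centring, 2181 without replicate S and 1244 without replicate I.

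With 1 array left out, other aquaporins called lower numbered 0 to 6 at 2 h, 5 to 7 at 4 h and 6 to 8 at 8-9 h. Those called higher numbered 0 to 3 at 2 h and 0 or 1 at 8-9 h. Other serine carboxypeptidase-like genes called lower numbered 0 to 3 at 2 h, 8 to 16 at 4 h and 4 to 16 at 8-9 h. Single calls lost in this way include PIP2;8 at 4 h, GAMMA-TIP at 8-9 h (both replicate S) and scpl26 at 8-9 h (replicate I). In the authors' ratios TIP2 and DELTA-TIP were not called at 2 h (adjusted p = 0.051 and 0.0544). An array left out leaves 1 array at its time, which is assumed to vary like the others. The rule found 29 genes with a late bound of -0.30, 4 with -0.40, 3 with an early window of 0.10, 33 with 0.20, and 15 to 47 without a column. It found 11 with both dyes well above background on all 8 arrays. With a bound of 1 for a line's own change, Alc::LHY was down for 1 member at 4 h and 4 at 8-9 h, and wild type was up for 0 at 4 h. The settings that leave out a column, the brightest probe and the settings for the families were chosen after seeing the data. Signal near background limits the 4 dim members, scpl28, AT3G49330, AT5G22310 and AT3G59340.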
